A study of Schizosaccharomyces pombe with 21 samples.

Results

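Fission yeast (Schizosaccharomyces pombe) cells starved of phosphate for 8 h without drug were compared with phosphate-replete cells (0 h), using 6 of the 21 RNA-seq libraries of the series. The comparison was defined by the sample labels, with 3 libraries in each group, and it covered 6392 of the 6988 genes in the table of counts. The same strain, AGP72, was used throughout. Its genotype is h-, that is, haploid and of M mating type. The 0 h cells were sampled in log phase in YES, a rich medium, and the 8 h cells after transfer to ePMGT, a defined medium, without phosphate. The change of medium and the loss of phosphate therefore cannot be told apart. A starved group sampled at 4 h was used to place the 8 h values in time, and cultures at 2 h are shown in plots. Cycloheximide, given at 100 µg/ml to other cultures of the series, was absent from all of these groups. The labels call the 3 libraries of a group biological replicates and say no more about their origin, so the tests measure the spread between these libraries.

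Phosphate is a growth-limiting nutrient in yeasts. In fission yeast the transcription factor Pho7 drives the pho genes, which encode a secreted acid phosphatase, a phosphate transporter and a glycerophosphodiester transporter. When phosphate is plentiful, noncoding RNAs transcribed through the promoters of these genes keep them low. Nutrient starvation in this species is also known to repress ribosome synthesis, to raise stress-protection and autophagy genes, and in some conditions to open the way to mating or quiescence. Maf1, named in the title of the series, represses RNA polymerase III, the enzyme that makes tRNA.

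Total counts lay between 23006377 and 31132468 in the 0 h libraries and between 24249785 and 28684142 in the 8 h libraries. Levels are given as CPM, the count of a gene as a share of its library, on library sizes scaled by TMM, without correction for gene length, so they compare libraries and not genes. Replicate 1 of 8 h stood apart from its group. Its chi-square per gene was 23.6 against replicate 2 and 19.7 against replicate 3, where replicates 2 and 3 gave 3.66 against each other and pairs of 0 h libraries 4.15 to 4.94. In that library 31 genes lay at least 2-fold below the mean of the other replicates on the log2(CPM + 1) scale and 0 lay above. These were 24 noncoding RNA genes, 2 small nucleolar RNA genes and 5 protein-coding genes, among them the pheromone gene mfm2. Without that library 1227 genes were called higher and 1005 lower. With all libraries the counts were 1212 and 997, of which 1176 and 967 were shared with the fit without it. Of 53 gene lists described here, 30 kept the same number of called genes without it, and no count moved by more than 4.

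A gene was called when edgeR's quasi-likelihood test gave a Benjamini-Hochberg adjusted p below 0.05 over all genes tested and the change was at least 2-fold. In the text, rose and fell refer to such calls, and log2 fold changes are given ± SE. After 8 h, 1212 genes were called higher (19.0% of those tested) and 997 lower (15.6%), together 34.6% of genes. Scaling by library size alone moved the median of all genes from -0.01 to 0.19 and the split to 1458 higher and 782 lower. At an 8-fold or larger change 205 genes were higher and 175 lower. At 32-fold or more, 53 were higher and 14 lower. The libraries of both groups did not overlap in 86.2% of all genes tested, so a lack of overlap by itself set few genes apart. For each gene named below as having risen or fallen, the libraries of 0 h and 8 h did not overlap. In bulk RNA, fewer cells of a kind and less RNA per cell cannot be told apart. CPM are relative levels on TMM-scaled library sizes, neither plain shares of the counts nor amounts of RNA per cell.

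**Figure D1:**
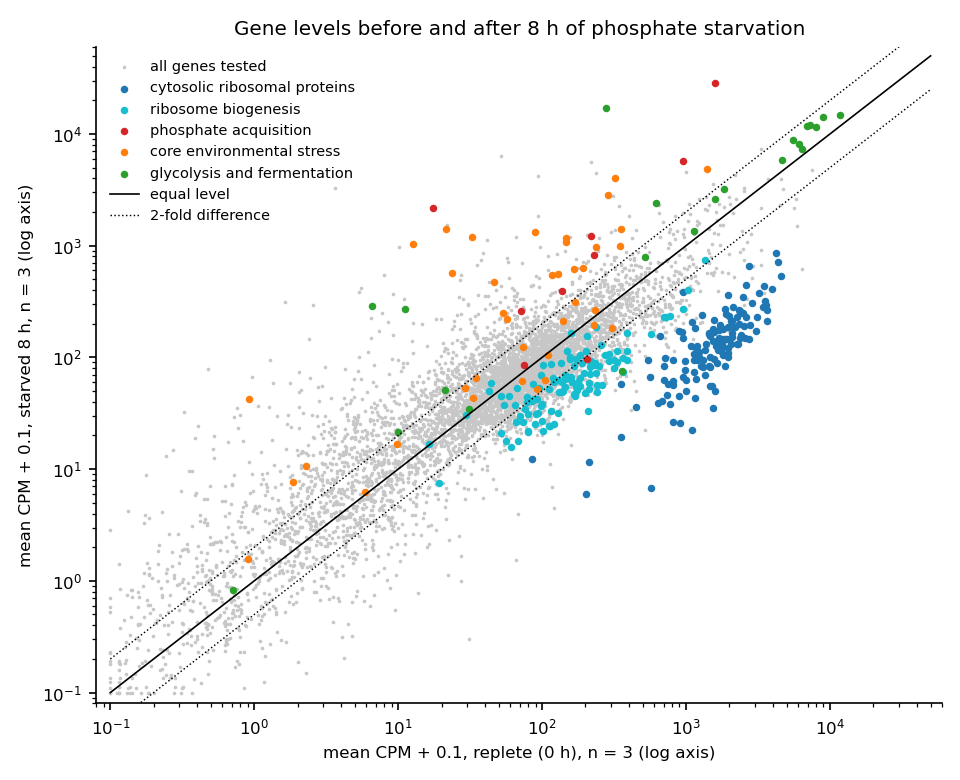
Mean CPM of each tested gene at 0 h (x axis) and at 8 h (y axis), both log axes with 0.1 added, n = 3 libraries each; coloured points are members of 5 gene lists, the solid line marks equal levels and the dotted lines a 2-fold difference. All 137 cytosolic ribosomal protein genes (dark blue) lie below the lower dotted line, and 7 of 9 phosphate acquisition genes (red) lie above the upper one.

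Most genes that bring phosphate into the cell rose, with pho1 and tgp1 among the 205 genes that were higher by 8-fold or more. Acid phosphatase gene pho1 (SPBP4G3.02), whose secreted product frees phosphate from organic esters, was at 1536, 1514 and 1723 CPM in the 0 h libraries and at 30754, 27250.0 and 28076 CPM in the 8 h libraries. The libraries of both groups were far apart, and the log2 fold change was 4.17 ± 0.09 (adjusted p = 3.5e-21). Transporter gene tgp1 (SPBC1271.09), for the uptake of glycerophosphodiesters, was at 16.4, 17.7 and 18.04 CPM and then at 2296, 2057 and 2102 CPM, a log2 fold change of 6.95 ± 0.08. Levels of pho84, the high-affinity phosphate transporter gene, were 917 to 1021 CPM at 0 h and 5493 to 5999.6 CPM at 8 h (2.58 ± 0.08). Other members of the list rose less. The phosphate transporter genes pho841 and pho842 rose by 2.47 ± 0.07 and 1.86 ± 0.06, the glycerophosphodiesterase gene gde1 by 1.88 ± 0.05 and the vacuolar alkaline phosphatase gene pho8 by 1.53 ± 0.05. In all, 7 of 9 tested genes of phosphate acquisition rose (19.0% of all genes did). The list median was 1.88 against -0.01 over all genes. The exception in direction was pho4, an acid phosphatase gene known to be repressed by thiamine, at 199, 207 and 206 CPM and then 99.4, 94.2 and 98.5 CPM (-1.07 ± 0.04), a call that was lost with library size alone. The phospholipase C gene plc1 was not called (0.19 ± 0.04). Summed over the list, levels went from 3397 to 3707 CPM at 0 h to 37569 to 42134 CPM at 8 h, with 21399 to 22082 CPM at 4 h between them.

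The step from 4 h to 8 h was uneven within the list. Against 4 h, tgp1 rose again by 1.08 ± 0.06 and pho841 by 1.06 ± 0.07, whereas pho1 differed by 0.98 ± 0.08, just under 2-fold. For pho84 the difference from 4 h was 0.56 ± 0.07. The transporter gene pho842 was at 910.5 ± 13.5 CPM (mean ± SD, n = 3, as for all 4 h levels here) at 4 h and at 781 to 870.0 CPM at 8 h (-0.14 ± 0.05). In the plot of these genes over time its 2 h, 4 h and 8 h points lie close together.

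Noncoding RNAs at the pho loci did not share a single pattern. SPNCRNA.1343, the RNA transcribed upstream of tgp1, fell from 46.8, 51.5 and 45.95 CPM to 6.98, 6.85 and 5.77 CPM (-2.87 ± 0.08). For prt2, transcribed upstream of pho84, levels were 26.5, 25.3 and 26.7 CPM at 0 h, 9.08 ± 0.727 CPM at 4 h and 11.9, 16.2 and 15.8 CPM at 8 h. It was not called at 8 h (-0.84 ± 0.08), although the libraries of 0 h and 8 h did not overlap. The translationally silent transcript of the pho1 locus (nc-pho1) was at 3.03 to 3.97 CPM at 0 h and 2.91 to 3.81 CPM at 8 h, and these ranges overlapped. The regulator genes pho7 and csk1 were not called at 8 h. The transcription factor gene pho7 stood at 83.5 to 91.4 CPM and then 96.4 to 101 CPM (0.16 ± 0.04), and csk1, a kinase gene that restrains the pathway, at 38.01 to 38.2 CPM and then 26.7 to 31.3 CPM (-0.42 ± 0.06). At 4 h csk1 had been at 18.96 ± 0.859 CPM and was called lower than at 0 h (-1.01), as were 13.9% of all genes.

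**Figure D2:**
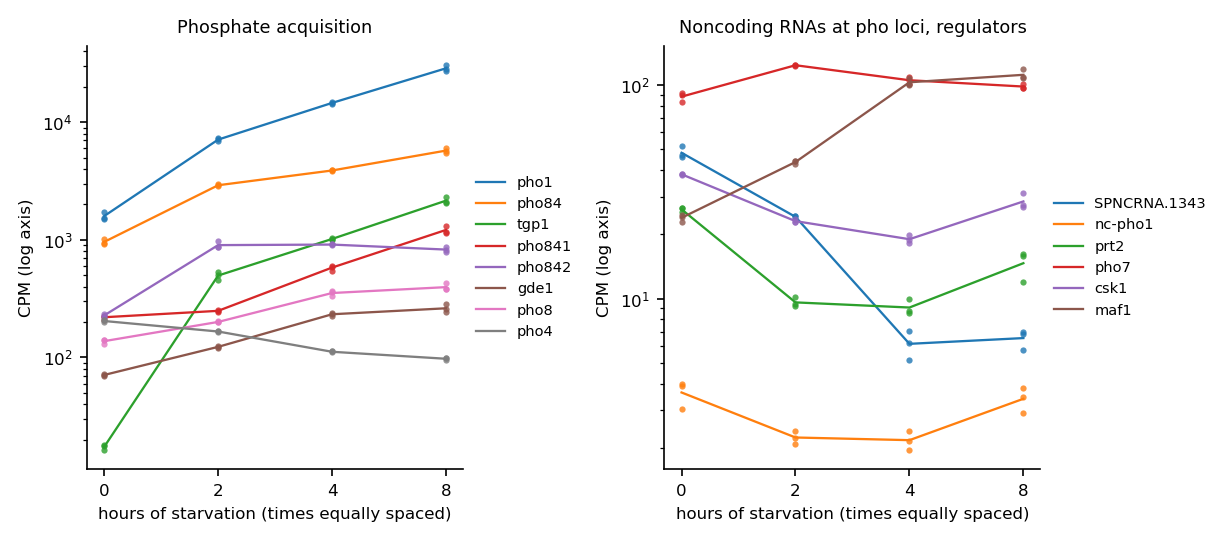
CPM on a log axis at 0, 2, 4 and 8 h for 8 phosphate acquisition genes (left) and for noncoding RNAs and regulators (right); points are single libraries, 3 per time, and lines join means. pho1, pho84, tgp1 and pho841 are highest at 8 h, pho4 declines, and SPNCRNA.1343 is lower at 4 and 8 h than at 0 h.

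Genes of phosphate signalling and storage moved in part. The asp1 gene, for the kinase that makes inositol pyrophosphate signals, went from 63.95, 67.6 and 62.99 CPM to 234, 209 and 213 CPM (1.75 ± 0.05). The VTC complex stores phosphate as polyphosphate, and its genes vtc4 and vtc2 rose by 1.47 ± 0.04 and 1.31 ± 0.04, while the exopolyphosphatase gene ppx1 fell (-1.07 ± 0.04), a call lost with library size alone. Of 10 genes of this group 3 rose and 1 fell, with a median of 0.28. Over all genes tested 19.0% rose and 15.6% fell, so the share of this group that fell was below the background. Among 15 genes of the 3-prime processing and termination machinery known to tune the pho genes, 0 rose and 1, the phosphatase gene dis2, fell (-1.14 ± 0.03), also lost with library size alone.

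Ribosomal protein genes made up the largest block that fell. All 137 tested genes of cytosolic ribosomal proteins fell (15.6% of all genes did). Log2 fold changes ran from -6.42 to -1.30, with a median of -3.62. Summed over the list, levels were 222963 to 237933 CPM at 0 h and 20698 to 24580.5 CPM at 8 h. Of the 10 genes with the largest losses of mean CPM, 7 were ribosomal protein genes (rps102, rps7, rpl402, rpp0, rpl502, rpl8 and rpl13). For rps102, a small-subunit protein gene, 4392, 4622 and 4695 CPM became 581, 513 and 526 CPM (-3.08 ± 0.06). The stalk protein gene rpp203 went from 530.0, 579.6 and 590.4 CPM to 6.77, 5.94 and 7.15 CPM, the largest fall of the list (-6.42 ± 0.09). Many ribosomal proteins are encoded by paralogs of almost the same sequence, between which reads may be split, and single-copy values are uncertain for that reason. Against 4 h, 67 of the 137 were lower again (2.78% of all genes were), with a median of -0.99. rpl1002, at 73.7 ± 7.15 CPM at 4 h and 21.4 to 23.97 CPM at 8 h, showed this second step (-1.72 ± 0.07), as did rps1402 (-1.59 ± 0.08). Outside the list, cpc2 encodes a ribosome-bound scaffold protein of the RACK1 family. It was at 6209, 6460.1 and 6468 CPM, then 687, 574 and 584 CPM (-3.38 ± 0.07), and -1.04 ± 0.07 against 4 h.

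The machinery that builds and serves ribosomes fell as well. Of 113 ribosome biogenesis genes 84 fell and 0 rose, with a median of -1.40. Examples were kri1 (199, 214 and 212 CPM to 36.3, 32.2 and 31.3 CPM, -2.65 ± 0.06), rlp7 (-2.31 ± 0.04), utp4 (-2.28 ± 0.04) and rrs1 (-2.27 ± 0.07), all for factors of ribosomal subunit assembly. Against 4 h, 0 of the 113 were called in either direction and the median was 0.09. Translation factor genes fell in 38 of 52 cases, among them tif512 (eIF5A, -2.98 ± 0.07) and tif11 (eIF1A, -2.53 ± 0.04). The elongation factor gene tef3 went from 5432, 5788 and 5671 CPM to 2412, 2025 and 2047 CPM (-1.38 ± 0.07). The 1 that rose was efm3, for an elongation factor methyltransferase (1.49 ± 0.06). Of 36 aminoacyl-tRNA ligase genes 16 fell, led by prs1 (-2.24 ± 0.05) and nrs1 (-1.96 ± 0.05), and 0 rose. Without replicate 1 of 8 h the number was 19. Of 76 genes of mitochondrial ribosomal proteins 6 fell, or 1 with library size alone and 3 with the compared groups only in the fit. That share was below the 15.6% of all genes that fell.

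Transcription of the stable RNAs was represented by the genes of RNA polymerases I and III. Of 34 tested genes 19 fell and 2 rose, with a median of -1.03, and without replicate 1 of 8 h 17 fell. The La protein gene sla1, for a chaperone of new tRNA, fell from 531, 548 and 554 CPM to 102, 91.2 and 97.03 CPM (-2.49 ± 0.05). nuc1, for the largest subunit of polymerase I, fell from 324 to 329 CPM to 79.1 to 81.6 CPM (-2.03 ± 0.05). The genes that rose were maf1 (22.8, 24.7 and 24.1 CPM to 118, 108 and 108 CPM, 2.22 ± 0.06) and brf1, for a subunit of TFIIIB (1.24 ± 0.05). Against 4 h maf1 was not called (0.12 ± 0.05). Among 12 subunit genes of RNA polymerase II, 3 fell (rpb8, rpb6 and rpc10, whose products all 3 nuclear polymerases share) and 0 rose. Counts at tRNA genes were too few to follow, at 2.56 to 3.6004 CPM at 0 h and 9.898 to 10.5 CPM at 8 h summed over all 187, in libraries made from polyadenylated RNA. In the TOR pathway, which couples nutrients to growth, 4 of 22 genes rose and 1 fell. That list also holds maf1, which is among the 4. The share that rose was near the 19.0% of all genes, and the share that fell was below their 15.6%. The kinase gene ppk31 rose by 2.26 ± 0.11, and bit61, for a TORC2 subunit, fell (-1.24 ± 0.05).

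Amino acid synthesis genes fell in 33 of 61 cases and rose in 0, with a median of -1.05. Over all genes tested 15.6% fell and 19.0% rose. met14, for a kinase of sulphate assimilation, went from 433, 455 and 455 CPM to 47.9, 50.7 and 49.7 CPM (-3.18 ± 0.04). The lysine gene lys3 (-2.05 ± 0.05), the histidine gene his1 (-1.998 ± 0.04) and shm1, for serine hydroxymethyltransferase (-2.04 ± 0.06), fell too. shm1 was also lower than at 4 h (-1.35 ± 0.06). Of 16 purine synthesis and salvage genes 5 fell, with apt1, for adenine phosphoribosyltransferase, at 408, 424 and 417 CPM and then 36.4, 31.7 and 32.1 CPM (-3.64 ± 0.06). Of 11 pyrimidine genes 4 rose, 3 fell and 4 were not called, with a median of -0.55. The synthesis genes ura3 and ura1 were among those that fell (-2.86 ± 0.06 and -1.68 ± 0.05), and the uracil-regulated genes urg1 and urg2 among those that rose (6.95 ± 0.13 and 5.49 ± 0.12). urg1 was at 52.4, 51.4 and 49.98 CPM and then 6859.5, 5979.6 and 6142 CPM. Of 20 mitochondrial protein import genes 11 fell, among them tim22 (-2.81 ± 0.08), tim50 (-1.62 ± 0.04), tim23 (-1.57 ± 0.04) and tom40 (-1.497 ± 0.04), which encode translocase subunits. Of 16 thiamine and vitamin genes, a list that also holds pho4, 7 fell, with pan5 of pantothenate synthesis at -4.79 ± 0.07 and the biotin transporter gene vht1 at -3.03 ± 0.08, and 2 rose.

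Among genes of carbon metabolism, some isozyme genes rose. The gene gpd3, for a glyceraldehyde-3-phosphate dehydrogenase, went from 274, 305 and 249.9 CPM to 19396, 16386 and 15910.0 CPM (5.96 ± 0.12). The pyruvate decarboxylase gene pdc201 went from 6.101, 6.19 and 6.99 CPM to 324, 282 and 253 CPM (5.47 ± 0.13), and adh4, an alcohol dehydrogenase gene, fell (-2.26 ± 0.04). In the list of glycolysis and fermentation 6 of 22 genes rose and 1 fell, and 21 of 22 values were above 0. The list median was 0.66. Glucose-repressed genes rose in 13 of 23 cases and fell in 1, gpd2 (-1.38 ± 0.04), or in 2 without replicate 1 or 3 of 0 h or replicate 2 of 8 h. fbp1, for the gluconeogenic fructose-1,6-bisphosphatase, went from 5.205, 5.897 and 4.599 CPM to 425, 377 and 350.3 CPM (6.21 ± 0.14). mel1, for an alpha-galactosidase, was at 0.341, 0.193 and 0.143 CPM and then 36.2, 31.99 and 29.7 CPM (7.17 ± 0.25). agl1, for a maltose-cleaving glucosidase, rose by 3.22 ± 0.06 and the glycerol metabolism genes dak1 and gpd1 by 3.15 ± 0.09 and 1.802 ± 0.10. Respiratory chain and ATP synthase genes rose in 8 of 60 cases (17 with library size alone) and fell in 1, and tricarboxylic acid cycle genes rose in 5 of 22 (8 with library size alone) and fell in 1. With 19.0% of all genes called higher, the first share was below that background and the second near it. The genes that fell were rcf1, for a cytochrome c oxidase assembly protein (-1.195 ± 0.13), and pdx1, of the pyruvate dehydrogenase complex (-1.08 ± 0.04), and both calls were lost with library size alone. Among those that rose were inh1, for an ATPase inhibitor (1.66 ± 0.05), atp5 (1.27 ± 0.03), mdh1, for malate dehydrogenase (2.14 ± 0.08), and idh1 (1.18 ± 0.04).

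**Figure D3:**
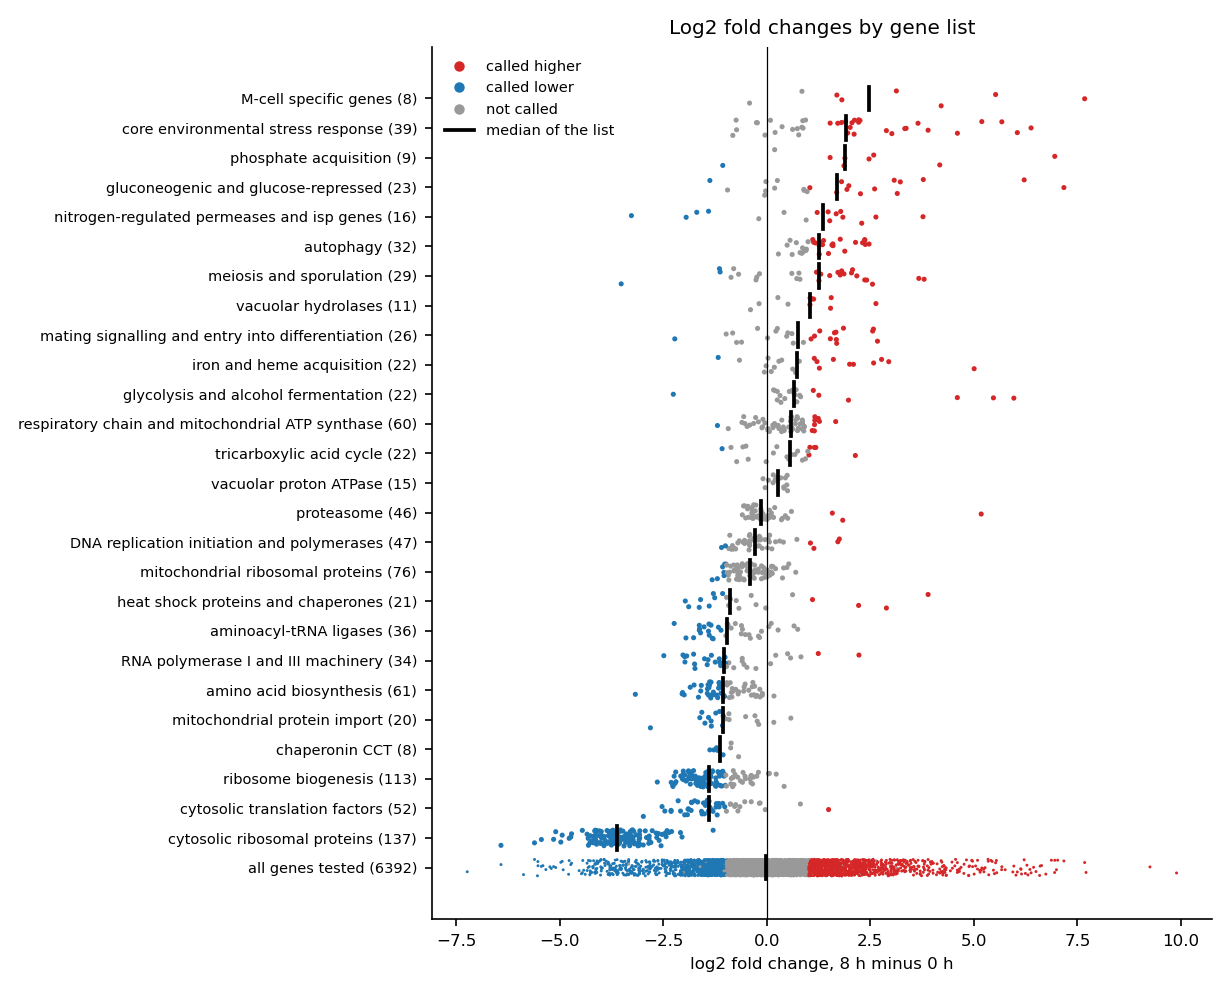
Log2 fold change from 0 h to 8 h (x axis) of every tested member of 26 gene lists and of all genes tested (bottom); the number of genes is in brackets, black bars are medians, and red, blue and grey mark genes called higher, called lower and not called. Cytosolic ribosomal proteins lie lowest with a median of -3.62, and M-cell genes and core stress genes highest with medians of 2.47 and 1.90.

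Many genes of stress protection rose. Of 39 genes of the core environmental stress list 23 rose and 0 fell, with a median of 1.90. Their summed level went from 5796 to 5842 CPM to 26747 to 29458 CPM, and it had been 29071 to 32553 CPM at 4 h. ddr48, a DNA damage-responsive gene, was at 12.3, 14.3 and 10.9 CPM and then 1150.1, 1103 and 847 CPM (6.38 ± 0.26). The metallothionein gene zym1 went from 21.1, 22.04 and 21.3 CPM to 1594, 1361 and 1303 CPM (6.05 ± 0.18). Of the small heat shock protein genes, hsp9 rose by 3.65 ± 0.12 and hsp16 by 3.89 ± 0.27, and the catalase gene ctt1 rose by 3.02 ± 0.12. Trehalose is a sugar that protects dried and heated cells. Its synthase gene tps1 rose by 2.01 ± 0.11 and the trehalase gene ntp1 by 2.11 ± 0.11. Of 21 heat shock and chaperone genes 4 rose, 8 fell and 9 were not called. The share that rose was near the 19.0% of all genes, and the share that fell was above their 15.6%. Both directions occurred among Hsp70 genes, with ssa1 at 2.88 ± 0.18 and the ribosome-associated sks2 at -1.97 ± 0.06. Among the 8 genes of the CCT chaperonin, which folds actin and tubulin, 5 fell and 0 rose, with cct8 lowest (-1.38 ± 0.04). With library size alone 3 fell.

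Autophagy breaks down cell contents for reuse, and many of its genes rose. Of 32 autophagy genes 20 rose (19.0% of all genes did), 0 fell and all 32 values were above 0, with a median of 1.26. atg4, for the protease that processes Atg8, went from 22.995, 19.7 and 19.2 CPM to 113, 117 and 111 CPM (2.47 ± 0.06). atg43, for a mitophagy receptor, went from 86.5, 88.5 and 84.6 CPM to 471, 431 and 430.4 CPM (2.36 ± 0.05). atg1801 and atg20 rose by 2.38 ± 0.05 and 2.36 ± 0.07. Vacuolar hydrolase and transport genes rose in 7 of 11 cases, or in 6 without replicate 1 of 8 h. The protease genes isp6 and psp3 were at 2.63 ± 0.09 and 1.55 ± 0.07. None of the 15 vacuolar proton ATPase genes was called (median 0.26). In the proteasome list 3 of 46 genes rose, a share below the 19.0% of all genes. These were the PI31-family genes fub2 and fub1 and the assembly chaperone gene nas6. fub2 was at 0.299, 0.532 and 0.428 CPM and then 12.8, 18.4 and 14.2 CPM (5.17 ± 0.25). The median of the proteasome list was -0.15, with the opposite sign under library size alone (0.06).

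Genes of nitrogen and metal uptake rose beside those of phosphate uptake. Of 16 nitrogen-regulated permease and isp genes 9 rose and 4 fell. isp4, for an oligopeptide transporter, went from 54.7, 53.7 and 62.7 CPM to 896, 745 and 697 CPM (3.77 ± 0.08). The dipeptide transporter gene ptr2 fell from 159, 148 and 167 CPM to 15.4, 16.99 and 16.7 CPM (-3.27 ± 0.07), and the amino acid permease gene aat1 fell late, from 76.5 ± 2.43 CPM at 4 h to 20.7 to 26.8 CPM (-1.63 ± 0.07 against 4 h). Of 22 iron and heme genes 10 rose and 1 fell. The heme transporter gene str3 was at 0.512, 0.725 and 0.428 CPM and then 15.6, 18.7 and 18.1 CPM (5.004 ± 0.23), the iron permease gene fip1 rose by 2.77 ± 0.09, and grx4, for an iron-sensing glutaredoxin, fell (-1.18 ± 0.04), a call lost with library size alone. Over all 153 tested transporter genes 49 rose (19.0% of all genes did) and 18 fell.

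The strain is of M type, and genes of M cells rose. mfm1, a gene of the M-factor pheromone, was at 1.83, 1.31 and 1.46 CPM in the 0 h libraries and at 287, 344 and 313 CPM in the 8 h libraries (7.67 ± 0.14, adjusted p = 3.2e-22). mfm3, a second pheromone gene, went from 1.28, 0.918 and 1.53 CPM to 55.9, 65.1 and 54.8 CPM (5.52 ± 0.14). The third, mfm2, was at 65.8, 58.5 and 51.8 CPM and then at 265, 651 and 618 CPM, replicate 1 being the lowest of the 8 h libraries. All 3 of its 8 h values lay above those of 0 h, with a log2 fold change of 3.13 ± 0.22, or 3.44 without replicate 1. mam2, for the receptor of the P-cell pheromone, went from 6.48, 5.85 and 5.92 CPM to 103, 124 and 110.5 CPM (4.21 ± 0.15). The exporter gene mam1 and the adhesion gene mam3 rose by 1.69 ± 0.07 and 1.81 ± 0.05, and mam4 (-0.42 ± 0.10) and sxa2 (0.85 ± 0.05) were not called. In sum 6 of 8 M-cell markers rose (19.0% of all genes did). The summed level of the 8 markers was 252 to 276 CPM at 0 h and 1135 to 1649 CPM at 8 h.

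Markers of the other mating type were detected in both groups. The 5 P-cell markers summed to 511 to 542 CPM at 0 h and 541 to 573 CPM at 8 h, and none of them lacked counts in either group. Most of this sum came from sxa1 (447 to 481 CPM at 0 h, 395 to 429 CPM at 8 h). The P-factor gene map2, which defines P cells, was at 6.23 to 7.02 CPM and then 6.95 to 8.07 CPM and was not called (0.19 ± 0.14). Only map1, for a MADS-box transcription factor that both cell types use, rose (2.03 ± 0.07) among the 5. Whether other cells had a part in the M-cell result was not tested.

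Mating signalling and early meiotic genes rose in part. Of 26 genes of mating signalling and entry into differentiation 12 rose and 1 fell. rgs1, for a regulator of the pheromone G protein, spk1, for its MAP kinase, and mei2, for an RNA-binding protein that starts meiosis, rose by 2.67 ± 0.09, 2.57 ± 0.10 and 2.55 ± 0.07. The gene that fell was nrd1, for an RNA-binding protein known to hold back differentiation (-2.23 ± 0.10), and without replicate 2 of 0 h or replicate 3 of 8 h the number that fell was 2. Of 29 meiosis and sporulation genes 16 rose and 3 fell. Over all genes tested 19.0% rose and 15.6% fell, so rises were more frequent and falls less frequent in both lists. Recombination genes rec12 and rec27 rose by 2.41 ± 0.09 and 2.55 ± 0.19, the cohesin gene rec8 by 1.71 ± 0.16 and spo5 by 1.81 ± 0.09. The genes mei4 and mei3, for a meiotic transcription factor and the inducer of meiosis, were not called (0.60 ± 0.12 and 0.77 ± 0.38), and mei3 stayed at 0.285 to 0.512 CPM and 0.491 to 0.845 CPM. spo6, for the regulatory subunit of a kinase needed for the second meiotic division, fell from 8.15, 9.62 and 8.31 CPM to 0.913, 0.585 and 0.769 CPM (-3.52 ± 0.17), with 3.098 ± 0.318 CPM at 4 h. The marker mde2, for a protein of meiotic double-strand break formation, was under 1 CPM in all of these libraries. It was not called (-0.80 ± 0.48), but was called lower without replicate 1 of 8 h (-1.45). The 9 markers of meiosis and sporulation summed to 52.2 to 59.5 CPM at 0 h and 144 to 161 CPM at 8 h.

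**Figure D4:**
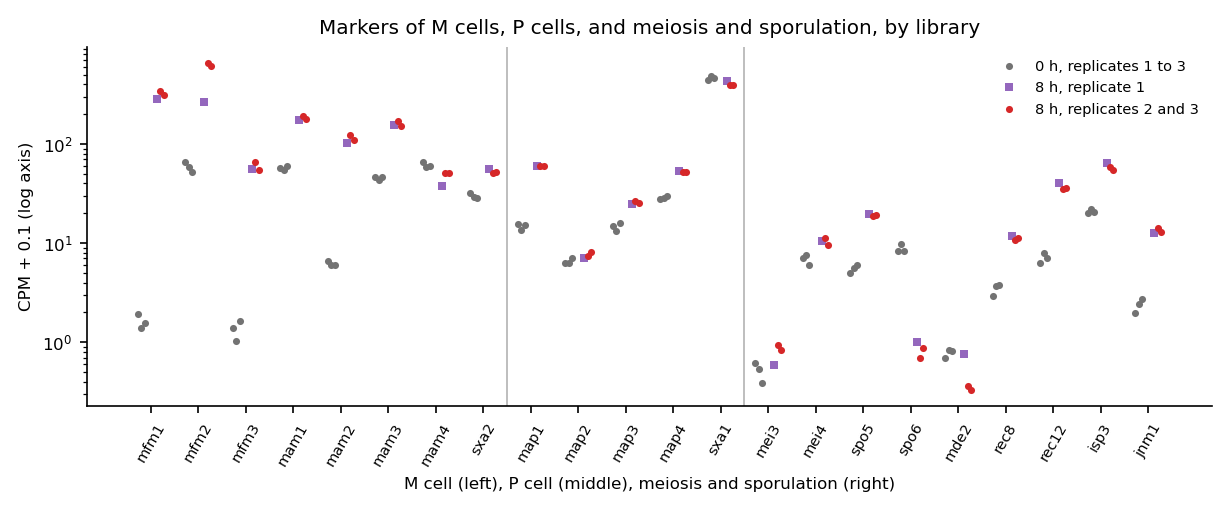
CPM plus 0.1 on a log axis for markers of M cells, P cells, and meiosis and sporulation in the single libraries of 0 h (grey) and 8 h (violet square for replicate 1, red for replicates 2 and 3). M-factor genes are higher at 8 h in all libraries, mfm2 is lower in replicate 1 than in replicates 2 and 3, and the libraries of both groups overlap for the P-factor gene map2.

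Few cell-cycle genes were called as lists. Of 27 genes of the G1/S programme 3 rose and 2 fell, and of 47 replication genes 4 rose and 2 fell. Of 28 mitotic genes 3 rose and 0 fell. These shares were all below the 19.0% of all genes that rose and the 15.6% that fell. None of the 11 histone genes was called (median 0.21). Single regulators did change. mik1, for a kinase that restrains entry into mitosis, fell from 64.2, 60.4 and 60.3 CPM to 12.8, 12.7 and 11.3 CPM (-2.33 ± 0.08), and again against 4 h (-1.04 ± 0.09). puc1, for a G1 cyclin, rose by 1.79 ± 0.08, and spd1, for an inhibitor of ribonucleotide reductase, went from 164, 166 and 166 CPM to 579.7, 644 and 610.0 CPM (1.89 ± 0.04). The replication gene mcm3 (-1.002 ± 0.04) and the MBF gene res1 (-1.02 ± 0.04) were at the 2-fold limit and lost their calls with DESeq2 and with library size alone. Without replicate 3 of 8 h neither was called (mcm3 -0.977, res1 -0.999), and mcm3 was not called without replicate 2 of 0 h (-0.979) or of 8 h (-0.992) either. Of 26 genes of septation and cell separation 2 rose and 3 fell, among the latter bgs3 (-1.69 ± 0.05). Those that rose were cdc16 and mob1, and neither was called without replicate 1 of 8 h (0.99 and 0.99). The number that fell was still 3 without that library. Of 3 genes known to extend chronological lifespan ecl3 rose, from 2.09, 1.79 and 1.96 CPM to 67.3, 77.7 and 76.004 CPM (5.23 ± 0.17).

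Lists with few calls included secretion, fatty acid synthesis, sterols, peroxisomes and splicing. Of 40 genes for translocation and vesicle coats 3 fell, and of 10 for ER translocation 2 fell, sec66 (-1.32 ± 0.05) and spc1 (-1.39 ± 0.08). Of 16 fatty acid genes 1 fell, elo2 (-1.34 ± 0.09), and of 25 sterol genes 2 rose and 3 fell. The sterol regulator gene sre1 rose by 1.204 ± 0.03 and hmg1, for HMG-CoA reductase, fell (-1.43 ± 0.04). pex7, of peroxisomal import, was the 1 of 12 peroxisome genes that rose (1.01 ± 0.05), and it lost its call without replicate 1 of 8 h (0.952) and without replicate 2 of 0 h (0.988). Of 27 genes of nuclear RNA surveillance and nonsense-mediated decay 8 fell, with cid14 (-1.56 ± 0.03) and the exosome gene rrp4 (-1.32 ± 0.04) the lowest, and red5 rose (1.54 ± 0.03). Cell wall genes numbered 22, of which 3 rose, exg3 (2.61 ± 0.08) first among them, and 2 fell, with gas4 of the spore wall at -2.03 ± 0.06. Of 53 splicing genes 4 rose and 3 fell, of 85 ubiquitin ligase genes 9 rose and 3 fell, and of 28 antioxidant and metal-binding genes 11 rose and 1 fell. Among 217 genes annotated as specific to this yeast 69 rose and 21 fell, and of 5 tested Tf2 retrotransposons, near-identical copies, 2 fell. Of all genes tested 19.0% rose and 15.6% fell. Beside these shares, rises were more frequent among antioxidant genes and genes specific to this yeast, and less frequent among ubiquitin ligase genes. Falls were more frequent among genes of RNA surveillance and decay.

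Noncoding RNA genes were called in both directions. Of 1225 tested, 387 rose and 170 fell with a median of 0.34, beside 798 and 792 of 5056 protein-coding genes with a median of -0.06. With the stricter filter on low counts 239 noncoding RNA genes were called higher and 95 lower. Their summed level was 14189 to 14553 CPM at 0 h and 16743 to 17959 CPM at 8 h. SPNCRNA.577 was at 0.469, 1.402 and 0.713 CPM and then 64.7, 69.3 and 64.5 CPM (6.305 ± 0.23), and SPNCRNA.935 at 4.69, 5.897 and 5.56 CPM and then 413, 422 and 418 CPM (6.28 ± 0.15). Antisense RNAs can share counts with the gene opposite them where strand is not used, and whether the counting used strand is not stated in the labels or file headers. Within several pairs the values of the 2 strands differed in direction. cpc2-antisense-1 rose from 0.427, 0.145 and 0.356 CPM to 22.9, 25.1 and 25.4 CPM (6.24 ± 0.18) while cpc2 fell. rpl1801-antisense-1 rose by 5.41 ± 0.14 and rpl1801, a ribosomal protein gene, fell (-4.28 ± 0.07). cao2-antisense-1 fell from 63.4, 67.5 and 66.5 CPM to 1.72, 1.17 and 1.38 CPM (-5.53 ± 0.12), and cao2, for a copper amine oxidase, rose (5.35 ± 0.10). Of all noncoding RNAs tested pfd1-antisense-1 had the lowest value (-7.24 ± 0.22), and pfd1 was not called (-0.51 ± 0.05). Of 44 small nuclear and nucleolar RNA genes 9 rose and 17 fell (4 and 8 with the stricter filter). The libraries were made from polyadenylated RNA, so counts at these genes need not follow their total RNA. Summed over all 60 such genes in the table of counts, levels were 428 to 433 CPM at 0 h and 422 to 458 CPM at 8 h. snoZ15 fell (-4.39 ± 0.30) and snR33 fell (-4.13 ± 0.41), the latter at 0.0351 to 0.455 CPM in the 8 h libraries.

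The genes that set 8 h apart from 4 h were fewer. Between these groups 241 genes were higher at 8 h (3.77% of those tested) and 178 lower (2.78%), together 6.56%. Without replicate 1 of 8 h the counts were 282 and 196. Noncoding RNA genes made up 119 of the higher and 64 of the lower ones, and 1225 of the 6392 genes tested. They were also 24 of the 31 genes that lay low in replicate 1 of 8 h. Among named genes called in both comparisons, the M-factor genes mfm3 and mfm1 had the largest values, with mfm3 at 2.27 ± 0.0114 CPM at 4 h and 54.8 to 65.1 CPM at 8 h (4.69 ± 0.13). mfm1 differed by 4.43 ± 0.10 and mam2 by 2.24 ± 0.12. ubp16-antisense-1 was higher by 3.18 ± 0.12 and cao2-antisense-1 lower (-3.42 ± 0.14). Also higher were xan1, for a dioxygenase that converts xanthine, at 185 ± 23.03 CPM at 4 h and 1169 to 1218 CPM at 8 h (2.68 ± 0.07), and dal2, for allantoicase (2.08 ± 0.06). The carbon genes fbp1 (2.05 ± 0.09), agl1 (2.06 ± 0.05) and gpd3 (1.45 ± 0.10) also rose further. The meiotic noncoding RNA gene omt3 was at 40.2 to 57.8 CPM at 0 h, 27.7 ± 2.36 CPM at 4 h and 117 to 140.2 CPM at 8 h (2.21 ± 0.10 against 4 h). cph1-antisense-1 took the opposite course, with 13.2 to 13.8 CPM, 32.9 ± 3.79 CPM and 4.98 to 6.59 CPM at the same times (-2.49 ± 0.11). Of 39 stress genes 1 was higher than at 4 h (xan1) and 0 were lower, with a median of -0.20.

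**Figure D5:**
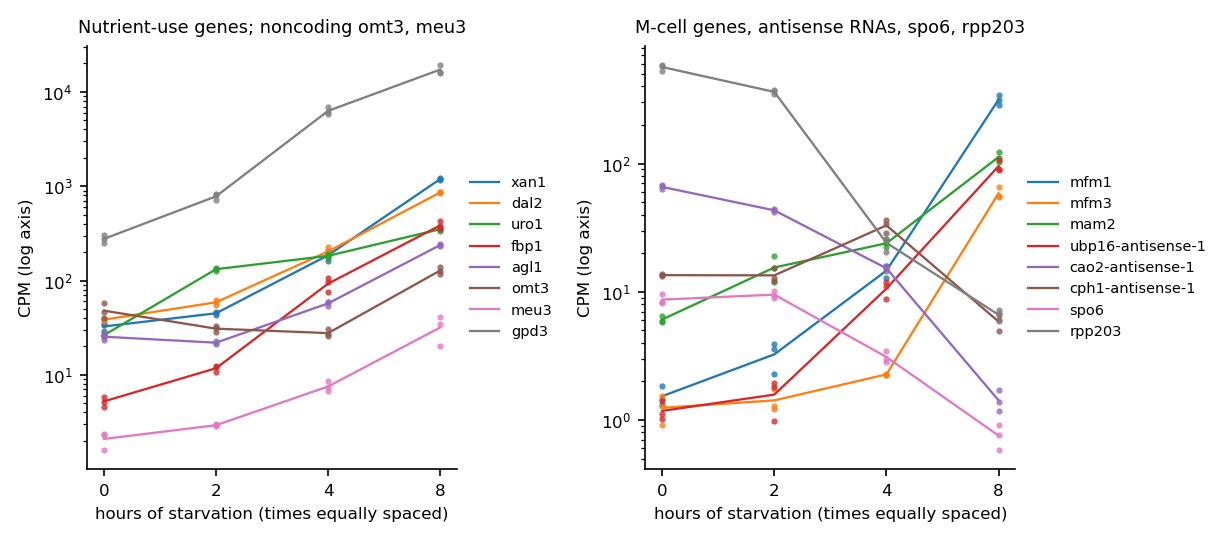
CPM on a log axis at 0, 2, 4 and 8 h for genes that differ between 8 h and 4 h, and for uro1, which was not called between them; points are single libraries, 3 per time, and lines join means. xan1, dal2, fbp1, agl1, mfm1, mfm3 and ubp16-antisense-1 are highest at 8 h, omt3 is lower at 4 h than at 0 h and highest at 8 h, and cph1-antisense-1 peaks at 4 h.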

How the data were processed

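RNA-seq of polyadenylated RNA was made with a stranded mRNA kit and paired-end sequencing, per the labels' protocols. The authors deposited whole-number counts per gene for 21 libraries. HISAT2 2.1.0, HTSeq 0.10.0, SAMtools, DESeq, DESeq2 and build ASM294v2 appear in the submitters' processing notes. Their roles and settings are not stated there. The authors' deposited table of 8 h against 0 h gives a log2 fold change and an adjusted p-value per gene. It was set beside the calls and entered no test: with the same thresholds it held 1261 higher genes, 1212 of them called here, and 970 lower, 967 of them called here. The RefSeq table used here (assembly ASM294v3) differs in build from the files, so it served for older symbols only, and no sequence is printed.

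Counts of all 21 libraries entered 1 fit in edgeR 4.0.16 (R 4.3.3), with group as its term, TMM scaling and the default filter, which removed 596 genes. That left 7.07 prior and 14 residual degrees of freedom. The contrasts were 8 h minus 0 h and 8 h minus 4 h. On simulated counts for 8 h against 0 h, 49 of 50 genes changed 2.5-fold, all 50 changed 4-fold and all 50 changed 8-fold were called, and 0 of 6192 unchanged genes. None of 50 genes changed 1.5-fold was called, by the 2-fold rule, and 50 had an adjusted p below 0.05. So did 5 of the 6192 unchanged genes. The simulation changed far fewer genes than were called in the data and made no replicate stand apart. It therefore does not cover errors of scaling or of replicate 1 of 8 h. Depth was 22079413 to 33563867 counts per library, and no pair of replicates of 0 h, 4 h or 8 h agreed within sampling noise.

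Replicate numbers come from the labels. Deviations of same-numbered libraries from their group means correlated at 0.156, 0.118 and 0.104 between 4 h and 8 h. Between 0 h and 8 h the values were -0.255, -0.0493 and -0.102. Differently numbered pairs gave -0.126 to 0.0155 between 4 h and 8 h, and -0.132 to 0.204 between 0 h and 8 h. Correlations of this size therefore also occurred between libraries of unlike number, and do not by themselves show pairing.

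The comparison, its genes and the 53 gene lists were chosen with earlier results of these data known. Members whose symbol names another gene in the table were taken out of the lists, and some product patterns were reworded, after the table was read, by name only. Lists are described by counts and medians, without set tests. Markers meu4 and mug1 stand in the table as isp3 and jnm1. Named genes had a symbol, a call, no overlap of libraries and, in the higher group, a mean scaled count of 100 or more. They were the 12 highest and 12 lowest, the 10 largest gains and 10 largest losses of CPM, up to 4 per list, 12 that differ most between 8 h and 4 h, 6 highest and 6 lowest noncoding RNAs, and pho genes and markers. Other named genes (plc1, pho841, pho842, gde1, pho8, vtc2, mei2, uro1, pfd1, cao2, rpl1801 and those of the closing section) were chosen after their values were seen.

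Alternatives were RLE factors, library size alone, no filter, a filter at a mean count of 100, the DESeq2 1.42.0 Wald test, the compared groups only, the replicate block and each library left out.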

Additional observations from a re-analysis of the deposited data

Results flagged for a closer look

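For 12 genes the change since 0 h differed between 8 h and 4 h by edgeR's test of 8 h against 4 h itself, with an adjusted p of at most 1.1e-08. The genes are the 12 with the largest such difference among named genes called in both comparisons. The log2 differences (8 h minus 4 h) of the M-cell genes were 4.69 for mfm3, 4.43 for mfm1 and 2.24 for mam2. Among metabolic genes they were 2.68 for xan1, 2.08 for dal2, 2.06 for agl1 and 2.05 for fbp1. Noncoding RNAs held the other values, 3.18 for ubp16-antisense-1, 2.21 for omt3, 2.08 for meu3, -2.49 for cph1-antisense-1 and -3.42 for cao2-antisense-1. In meu3, replicate 1 of 8 h was lower than the others (20.1, 40.9 and 34.3 CPM). The log2 fold change of meu3 against 0 h was 3.95 ± 0.26 with that library and 4.19 without it. Its 4 h libraries lay at 6.70 to 8.51 CPM, below all of the 8 h libraries. The difference from 4 h without replicate 1 of 8 h is not given here.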

How the results depend on the processing

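Counts of called genes at 8 h against 0 h stayed within 1.5 times the reported counts under every alternative run: 993 to 1458 higher and 782 to 1007 lower. With each library left out in turn they were 1194 to 1227 and 990 to 1007. At 8 h against 4 h the stricter filter left 147 higher genes (fewer genes tested), and leaving out each library gave 227 to 282 higher and 171 to 196 lower. The replicate block gave 1212 higher and 996 lower genes against 0 h and 239 and 179 against 4 h, and changed no count by over 1.5 times.

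Library size alone turned the sign of 3 list medians, to 0.0895 for termination factors (from -0.11), 0.0586 for the proteasome (from -0.15) and 0.142 for protein-coding genes (from -0.06). Shares of deposited counts turned the sign of 5 summed levels of 8 h over 0 h in log2: proteasome 0.0858, replication 0.0010, septation 0.126, sterol 0.0246 and splicing 0.11. Among values of named genes under single alternatives, 2761 kept their call and sign, 38 lost a call (21 of them with library size alone) and 3 gained one. A share of promoters with a motif was planned and not run, since no genome of the files' build was used here.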

Other observations

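Groups in this section were picked after their values were seen, by words of the product or by symbol, and carry no test beyond that of each gene. Genes of purine breakdown rose in 5 of 9 cases, with 0 lower, and the 4 that were not called were urease and its accessory genes. xan1 and dal2 are given above. uro1, for uricase, went from 25.5, 26.7 and 26.7 CPM at 0 h to 361, 335 and 354 CPM at 8 h (3.73 ± 0.05), dal1, for ureidoglycolate hydrolase, from 13.3, 14.5 and 13.6 CPM to 68.3, 68.5 and 69.4 CPM (2.32 ± 0.08), and the hydroxyisourate hydrolase gene SPCC285.04 rose by 2.17 ± 0.06. The urease gene ure2 was at 146 to 148 CPM and then 183 to 216 CPM (0.41 ± 0.05). Of 7 genes for transport of purines, nucleobases or urea 6 rose (5 without replicate 1 of 8 h), among them SPAC1399.01c (33.7, 36.3 and 34.8 CPM to 598, 697 and 729.6 CPM, 4.27 ± 0.07). Against 4 h, 4 of these 7 and 3 of the 9 breakdown genes were higher. Of all genes tested 19.0% rose from 0 h to 8 h and 3.77% were higher at 8 h than at 4 h.

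The wtf elements, a family known for meiotic drive, rose in 21 of 25 cases (19.0% of all genes did) and fell in 0 (median 2.02). Against 4 h, 11 of the 25 were higher (3.77% of all genes were). The genes of the family are near copies that can share reads, and many had few counts. wtf14 went from 48.4 to 51.96 CPM to 110.2 to 135 CPM (1.33 ± 0.07) and wtf24 from 7.52 to 8.22 CPM to 37.1 to 38.8 CPM (2.26 ± 0.06).

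Antisense RNAs named for the gene opposite were tested in 408 cases, 386 of them with that gene tested as well. Of the 127 such antisense RNAs that rose, 31 lay opposite a gene that fell (24.4%) and 18 opposite one that rose (14.2%). Over all 386 pairs the opposite gene fell in 14.2% and rose in 18.9% of cases. Of 54 antisense RNAs that fell, 16 lay opposite a gene that rose (29.6%) and 6 opposite one that fell (11.1%). The stranding of the counts was not tested.

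The arginase gene car1 went from 32.5 to 37.8 CPM at 0 h to 726 ± 15.3 CPM (mean ± SD, n = 3) at 4 h and 346 to 389 CPM at 8 h, lower again than at 4 h (-1.003 ± 0.08).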
